A study of Mus musculus with 11 samples.

Results

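Cohesin sites that lie outside acetylated chromatin, but within reach of it, are described here. They are reproducible Smc1a sites with no acetylated peak on them in any library and with the nearest acetylated region of wild-type cells more than 10000 and at most 100000 bp away. Of 14848 reproducible Smc1a sites, 6400 met this rule (43.1%, 95% Wilson interval 42.3 to 43.9), and they are called intermediate sites below. A reproducible site or region is a stretch of merged peaks that holds a peak of both libraries of its group. Intervals on shares cover counting error only. The other sites fell into 3260 in a reproducible wild-type acetylated region, 821 on some other acetylated peak, 2341 flanking sites at most 10000 bp from such a region, and 2026 remote sites more than 100000 bp away.

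The material was CD4+ CD8+ double positive thymocytes, sorted from mice aged 6 weeks, and binding was read by chromatin immunoprecipitation with sequencing. Acetylation of lysine 27 on histone H3 (H3K27ac) was profiled in 2 wild-type (WT) libraries and in 2 libraries of Rad21-/- littermates (KO), in which a floxed Rad21 allele was deleted by a Cd4-driven Cre transgene. Smc1a was profiled in 2 WT libraries and not in KO cells, so the sites describe cohesin before its loss. Whether the control mice carried the floxed allele or the transgene, and whether a library came from 1 mouse or from several, was not stated in the labels. The H3K27ac lists held 15686 to 21973 peaks and the Smc1a lists 25484 and 17726. WT replicate 2 had the shortest H3K27ac list. The files give peaks in mm9 coordinates without gene names, so neither the deletion of Rad21 nor marker genes of double positive thymocytes were checked, and sites were not assigned to genes.

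Smc1a is one of the paired SMC arms of the cohesin ring, and Rad21 is the kleisin that joins their heads. Cohesin is loaded onto chromatin with the help of Nipbl, moves along the fibre while drawing in a loop, and is halted mainly where CTCF is bound. Much of it therefore accumulates at CTCF sites between genes, and another fraction is found at active promoters and enhancers, the places that carry H3K27ac. In thymocytes, CTCF and cohesin are known for the folding of antigen receptor loci and of the neighbourhoods in which enhancers meet promoters.

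Smc1a sites became sparser with distance from acetylation. Sequence free of acetylated peaks was divided by its distance from the nearest reproducible WT region, and sites were counted by their midpoints, so these counts differ slightly from those of the classes. From 10000 to 20000 bp there were 13.3 reproducible sites per Mb, close to the 13.5 per Mb found from 5000 to 10000 bp. The density was 11.7 per Mb from 20000 to 30000 bp, 9.40 from 30000 to 50000 bp, 7.62 from 50000 to 70000 bp and 6.02 from 70000 to 100000 bp. Beyond 200000 bp it was 0.633 per Mb. The first 2000 bp next to an acetylated region were poorer in sites (8.53 per Mb) than the stretch from 5000 to 20000 bp. A site centred close to the edge of a region overlaps it and was not counted there, so part of this lower value was built in. How large that part is was not tested. Within the acetylated regions themselves there were 66.6 sites per Mb. Over the whole span from 10000 to 100000 bp the density was 9.46 per Mb, against 12.1 nearer and 1.25 farther away. The peaks of each replicate taken alone followed the same order, with 15.7, 19.4 and 2.30 per Mb in replicate 1 and 10.5, 13.7 and 1.55 per Mb in replicate 2. Sequence to which no read can be mapped was not removed from these lengths, and its part in the low value far from acetylation was not tested.

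**Figure D1:**
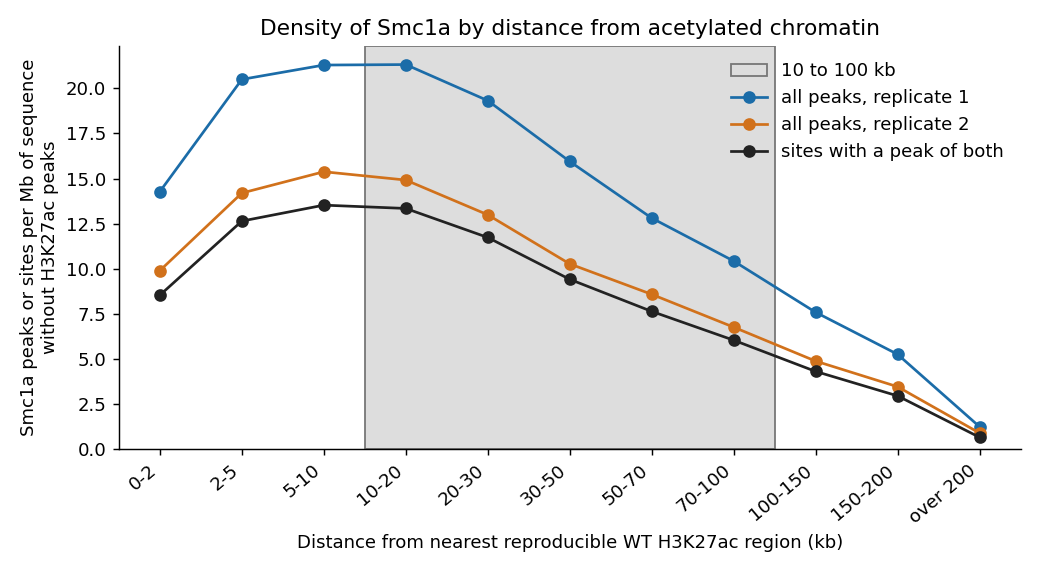
Smc1a peaks or sites per Mb of sequence without H3K27ac peaks (vertical axis) in bins of distance from the nearest reproducible WT H3K27ac region (horizontal axis, kb, bins of unequal width), with the span of the intermediate sites in grey. Reproducible sites fall from 13.3 per Mb at the near edge of the grey span to 6.02 per Mb at its far edge, and both replicates follow the same course.

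Within the span, the sites lay toward its near side. The median distance to acetylation was 32254.5 bp (quartiles 18871.5 and 54664 bp). Of the 6400 sites, 2389 (37.3%) lay within 25000 bp and 4544 (71.0%) within 50000 bp. Sequence free of acetylated peaks lay toward the near side too, with 133.8 Mb at 10000 to 20000 bp and 149.2 Mb in the wider bin of 70000 to 100000 bp. The acetylated region was on the side of lower coordinates for 3147 sites (49.2%), and on the other side for the rest.

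Every autosome and the X chromosome held such sites, in similar proportion. They made up 38.3% (chromosome 13) to 47.9% (chromosome 19) of the reproducible sites of a chromosome, with a median of 42.3%. Per Mb of the span from 10000 to 100000 bp, chromosome 11 was the richest with 11.4 sites and the X chromosome the poorest with 5.34. The median over the 20 chromosomes was 9.49 per Mb. The 5 reproducible sites of the Y chromosome included none.

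The intermediate sites were compact, as were the flanking and remote ones. Their median width was 733 bp (quartiles 608 and 872 bp), against 773 bp for flanking sites, 669.5 bp for remote sites and 1068 bp for sites in acetylated regions. A single peak of each replicate formed the site in 6373 of 6400 cases (99.6%). In those, the centres of both peaks lay a median of 45.5 bp apart, and within 100 bp of each other in 82.7%. The offset was similar for flanking sites (47 bp, 79.6% within 100 bp) and remote sites (42 bp, 85.8%). For sites in acetylated regions the median offset was 65.5 bp, and 65.0% lay within 100 bp. Peaks were also followed from one replicate's list to the other. Of the 7129 replicate 2 peaks in the span, 6432 (90.2%, 95% interval 89.5 to 90.9) overlapped a replicate 1 peak, against 88.7% (87.4 to 89.8) of flanking ones, 74.7% (73.4 to 75.9) of those in acetylated regions and 80.7% (79.1 to 82.2) of remote ones. In the other direction, 60.3% (59.4 to 61.3) of the 10672 replicate 1 peaks in the span were shared, against 63.1% (61.5 to 64.6) of flanking ones, 59.3% (58.0 to 60.6) in acetylated regions and 54.6% (53.0 to 56.2) of remote ones. The contrast with acetylated chromatin was thus seen from replicate 2 and not from replicate 1, whose list is the longer one.

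Peak scores, the authors' own values from the peak caller, were read as percentiles within each replicate's list. The median score of the intermediate sites was 308.5 in replicate 1 and 137.1 in replicate 2, which corresponds to percentiles of 72.1 and 57.3. Remote sites had lower medians, at percentiles of 61.6 and 50.4. The intermediate sites stood above them by 10.4 and 6.82 points, on 20 of 20 chromosomes in replicate 1 and on 19 of 20 in replicate 2. Flanking sites had percentiles of 74.4 and 60.7, so the intermediate sites were 2.33 and 3.49 points below them. On 13 of 20 chromosomes in replicate 1 and on 16 of 20 in replicate 2 the intermediate sites were not the higher class. Against sites in acetylated regions the replicates differed, with the intermediate sites 17.4 points higher in replicate 1 and 0.942 points lower in replicate 2. With 2 libraries of 1 group no test between classes could be made, so these are values of the libraries side by side. Ranked among reproducible sites alone, the intermediate sites had median percentiles of 55.5 and 50.2, and remote sites 41.8 and 42.7. The percentiles within the full lists are raised by the need for a peak of both lists. Without it, the median in the span was 55.1 for replicate 1 alone and 52.7 for replicate 2 alone.

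**Figure D2:**
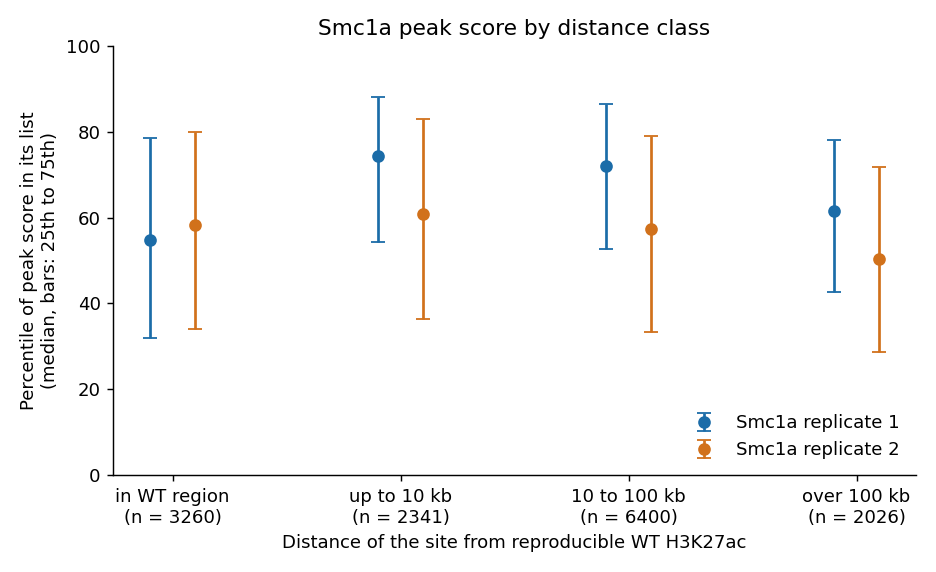
Percentile of the Smc1a peak score within its replicate's list (vertical axis; dots are medians, bars run from the 25th to the 75th percentile of sites) for 4 distance classes (horizontal axis). The intermediate class has medians of 72.1 and 57.3, above the remote class in both replicates, while its place relative to sites in acetylated regions differs between the replicates.

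Scores ranged widely within the class. Replicate 1 scores ran from 50.04 to 2873 and replicate 2 scores from 50.01 to 2028. In log2 units the scores of both replicates correlated with Pearson's r of 0.725, and in ranks with Spearman's rho of 0.714 (6400 sites, a description, since all share the same 2 libraries). There were 573 sites (8.95%) in the upper 10% of both lists and 206 (3.22%) in the lowest 25% of both. The intermediate class supplied 45.0% of the 1273 reproducible sites in the upper 10% of both lists, against its 43.1% share of all sites. Strong sites lay slightly nearer to acetylation, with a median of 26725 bp for the 573 sites and 37567.5 bp for the 206. Over all sites, though, rho between score and distance was only -0.0800 in replicate 1 and -0.0665 in replicate 2, both weak. Median percentiles were 73.7 and 60.1 at 10000 to 20000 bp, against 69.9 and 53.2 at 70000 to 100000 bp. The fall was not even, as replicate 1 was lowest, at 68.9, from 50000 to 70000 bp. Score was tied more closely to width, with rho of 0.496 and 0.323, and the strongest sites were also wider (865 bp, against 555.5 bp for the weakest). The part of width in the score differences between classes was not tested.

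The 10 sites with the highest mean percentile show what a strong unacetylated Smc1a site looks like in these lists. The first spanned chr2:39228387-39229133, with scores of 2873 in replicate 1 and 2028 in replicate 2, the highest of the class in both. Its nearest acetylated region began 45607 bp away on the left, and the nearest on the right was 4353011 bp away. It therefore stood at the edge of a long stretch with no reproducible acetylation. The site at chr10:99078040-99079034 had a similar setting, with scores of 2210 and 1901, an acetylated region 14033 bp to the left and none for 6198720 bp to the right. Another at chr16:87746754-87747665, with scores of 2141 and 1623, lay 15196 bp from a region of 12061 bp on one side and 952696 bp from the next on the other.

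Other strong sites stood between close acetylated regions. The site at chr14:20886007-20887289 scored 2320 and 1195 and had acetylated regions 13818 and 23433 bp away on either side. At chr1:167666047-167666981 the scores were 1891 and 1446, and the regions lay 15585 and 42305 bp away. This was also the most acetylated neighbourhood of the 10, with 89801 and 79499 bp of peaks within 100000 bp in WT cells, against 82264 and 69410 bp in KO cells. The groups overlapped there, since KO replicate 1 exceeded WT replicate 2. At chr6:129016727-129017605, with scores of 2490 and 1878, the nearer region was 27506 bp and the farther 112685 bp away.

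The libraries separated by genotype around 5 of the 10 sites, and overlapped around the other 5. Over all intermediate sites, both KO libraries were the higher ones around 21.8% and the lower ones around 14.4%. Over all reproducible Smc1a sites these shares were 16.7% and 21.3%. The 10 picked sites were not tested against them. In the neighbourhood of chr9:51716690-51717704, with Smc1a scores of 1951 and 1539, acetylated peaks within 100000 bp covered 12357 and 10843 bp in the WT pair, against 24069 and 17891 bp in the KO pair. Both KO libraries were also the higher ones around the sites of chromosomes 6 and 14, with 6828 and 6463 bp in WT against 8272 and 7327 bp in KO at the former, and 14503 and 15775 bp against 17554 and 16935 bp at the latter. Around the site of chromosome 16 both were lower, with 41173 and 37303 bp in WT against 36482 and 34848 bp in KO. The remaining 3 sites were chr1:90458170-90459544 (scores 2121 and 1433), chr10:6814560-6815535 (2020 and 1337) and chr10:117807345-117808096 (1990 and 1368). The last of these was the fourth neighbourhood with more acetylated length in both KO libraries, 2202 and 2234 bp in WT against 2458 and 2256 bp in KO. Each of the 10 nearest acetylated regions had peaks of all 4 H3K27ac libraries.

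The longest sites ranged widely in score. The longest, chr18:75757399-75760647, measured 3249 bp, with scores of 1353 and 489.1, and its nearest WT region lay 55695 bp away and lacked a peak of KO replicate 1. On the X chromosome a site of 2926 bp, chrX:166415683-166418608, lay past the last reproducible WT region of its chromosome and was scored unequally, 92.25 in replicate 1 and 475.4 in replicate 2. It had a reproducible KO region 7533 bp away, while the nearest reproducible WT region was 96083 bp away. The site at chr7:17534952-17537476 (2525 bp, scores 1155 and 503.6) also lay nearer to KO than to WT acetylation, at 4258 and 24318 bp. At chr5:137181337-137183852 (2516 bp, scores 650.4 and 290.0) both distances were alike, 10656 and 10707 bp, and at chr11:115219418-115222023 (2606 bp, scores 145.0 and 85.26) they were 41759 and 42132 bp.

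Most intermediate sites lay in long gaps between neighbouring acetylated regions. Of the 6400, 6386 had a reproducible WT region on both sides. The gap around them had a median length of 183280 bp (quartiles 97194 and 368728 bp). The farther of both flanking regions was a median of 134050 bp away, and it too lay within 100000 bp for 2495 sites (39.1%). There were 7840 gaps longer than 20000 bp, the shortest that can hold such a site, and 3708 of them did. The share was 15.9% (95% interval 14.5 to 17.4) for gaps of 20000 to 50000 bp and 46.4% (44.1 to 48.8) at 50000 to 100000 bp. It was 69.7% (67.2 to 72.0) at 100000 to 200000 bp and 73.7% (71.1 to 76.1) at 200000 to 500000 bp. Longer gaps offer more sequence in the span until they exceed 200000 bp, after which that length is constant. Beyond 500000 bp the share was nevertheless lower, 63.1% (60.0 to 66.0), with 1.13 sites per gap against 1.49 in gaps of 200000 to 500000 bp.

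**Figure D3:**
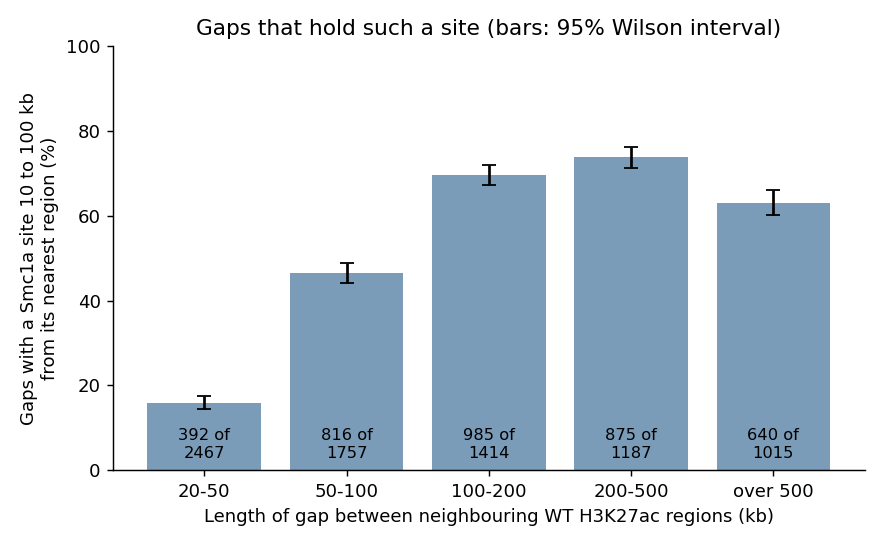
Share of gaps between neighbouring reproducible WT H3K27ac regions that hold at least 1 intermediate Smc1a site (vertical axis, percent, bars with 95% Wilson intervals) by gap length (horizontal axis, kb), with counts in each bar. The share is highest, 73.7%, in gaps of 200 to 500 kb and is 63.1% in longer ones.

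Sites often shared a gap. A single intermediate site was found in 2002 gaps (54.0% of those with any), 2 in 1041 gaps, 3 to 5 in 647 and 6 or more in 18. Gaps with at least 2 held 4384 sites, 68.7% of those flanked on both sides. No gap held more than 7.

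The 4 gaps with 7 intermediate sites differed in form. On chromosome 17 from 73609198 to 74156190 (546993 bp) 5 of the sites lay near the left end and the others toward the right, with scores from 97.90 to 1024 in replicate 1 and from 50.67 to 504.7 in replicate 2. The gap of chromosome 4 from 47025340 to 47284906 (259567 bp) held sites near both ends, scored 81.83 to 814.9 and 75.42 to 551.2. The other gap of chromosome 4, from 87922461 to 88366872 (444412 bp), held 11 reproducible sites in all, 1 flanking, 2 remote and 1 on an acetylated peak that was not reproducible in WT. The gap of chromosome 6 from 49071554 to 49212771 was short, 141218 bp, and all 7 of its sites were intermediate ones, scored 118.1 to 502.2 and 57.76 to 212.1. Neither WT library had a peak in it, and the KO libraries had 1192 and 120 bp. Another 14 gaps held 6 intermediate sites, and the one shown, on chromosome 10 from 19413924 to 19711038 (297115 bp), is the first of them when chromosome names are sorted as text. Median percentiles in these 5 gaps were 52.9 to 76.5 in replicate 1 and 36.5 to 49.4 in replicate 2, so in replicate 2 all 5 were below the class median of 57.3.

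**Figure D4:**
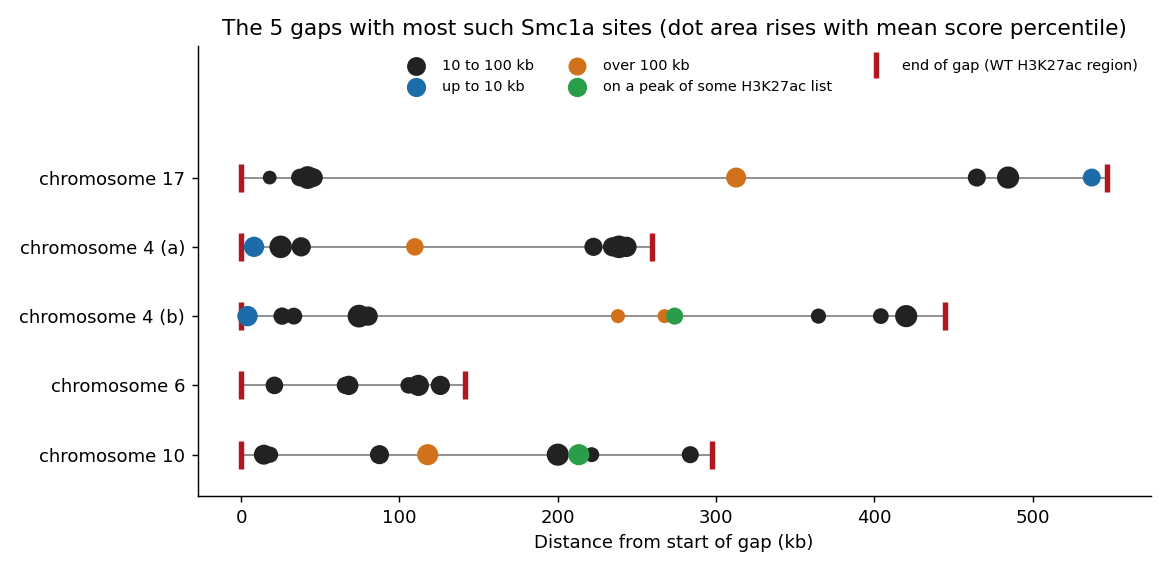
Positions of all reproducible Smc1a sites (dots, coloured by distance class, area rising with the mean score percentile) in the 4 gaps with 7 intermediate sites and 1 of the 14 gaps with 6, in kb from the start of each gap; red marks are the ends of a gap, (a) is the gap of chromosome 4 that starts at the lower coordinate and (b) the other. Each of the upper 4 gaps holds 7 intermediate sites, and those of chromosome 6 fill a gap of 141 kb with no other class of site.

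Neighbouring Smc1a sites were spaced according to their distance from acetylation. The median gap from an intermediate site to the nearest other reproducible Smc1a site was 25198.5 bp (quartiles 9030 and 55442 bp). It was 8405 bp for sites in acetylated regions, 15575 bp for flanking and 65625 bp for remote sites. Another site lay within 10000 bp of 1710 intermediate sites (26.7%, 95% interval 25.6 to 27.8), against 38.9% (37.0 to 40.9) of flanking and 15.8% (14.3 to 17.5) of remote sites. Within the class, the median spacing widened from 18367 bp at 10000 to 20000 bp from acetylation to 37413 bp at 70000 to 100000 bp. Close pairs, within 2000 bp of another site, numbered 488 (7.62%). With the peaks of Smc1a replicate 1 alone there were 10672 sites in the span and the median spacing was 14122 bp, because a site then needs a peak of 1 list only.

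The nearest neighbour was mostly another intermediate site. That held for 4138 of the 6400 (64.7%), where the class makes up 43.1% of all reproducible sites. The neighbour was a flanking site for 930 (14.5%, a class of 15.8% of all sites), a site in an acetylated region for 682 (10.7%, against 22.0%) and a remote site for 336 (5.25%, against 13.6%). Since the classes are bands of distance, close neighbours tend by construction to share a class. Seen from acetylation, 3933 intermediate sites (61.5%) were the first reproducible Smc1a site met on the way from the nearest region. One other site lay between for 1806 (28.2%), and 2 or more for 661 (10.3%). First sites had median score percentiles of 72.5 in replicate 1 and 58.5 in replicate 2, and later ones 71.6 and 54.9, so the first sites were the higher in both. Isolated sites, with no other within 100000 bp, numbered 619 (9.67%). They had median percentiles of 66.8 and 54.2, and lay farther from acetylation (43549 bp).

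The acetylated regions nearest to these sites were then followed into KO cells. The 6400 sites had 4277 distinct nearest WT regions, of which 2727 were nearest to 1 site and the others to up to 6. Of these regions, 116 (2.71%, 95% interval 2.27 to 3.24) had no peak of either KO library, against a background of 4.08% over all 13937 reproducible WT regions. A peak of both KO libraries was present in 3922 (91.7%, 90.8 to 92.5), against a background of 89.0%. The share without a KO peak was therefore below the background. The nearest regions differ from the rest in grouping, since 70.7% had no other WT region within 10000 bp, against 41.1% of the others. Among regions standing alone in this sense, 2.18% (1.72 to 2.77) of those nearest to an intermediate site and 3.28% (2.77 to 3.88) of the others had no KO peak. Among regions with a neighbour the shares were 3.98% (3.03 to 5.21) and 5.67% (5.10 to 6.31). The order was the same in both, with smaller differences than between the 2.71% and 4.69% found without this division. These intervals treat regions as units and do not measure the spread between libraries.

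Leaving out a library moved both the share and its background. Without WT replicate 2 the nearest regions lacked a KO peak in 11.9% of cases, against 14.8% of all regions, and without WT replicate 1 in 4.61% against 7.62%. Without KO replicate 1 the shares were 6.51% and 8.84%, and without KO replicate 2 they were 4.47% and 6.25%. With WT and KO exchanged throughout, 214 of 4600 nearest KO regions (4.65%, 4.08 to 5.30) had no WT peak, against a background of 4.18%, so the lower share was not seen in that direction. The nearest WT regions also held a Smc1a site less often, in 607 cases (14.2%, 13.2 to 15.3) against a background of 19.0%. They were slightly shorter, with a median of 2442 bp against 2552 bp over all WT regions.

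Most intermediate sites kept their distance class when measured from KO acetylation. A reproducible KO region lay within 10000 bp of 515 sites (8.05%), between 10000 and 100000 bp from 5823 (91.0%) and farther than that from 62 (0.969%). The rule allowed no reproducible WT region within 10000 bp of any site. The 515 lay near 481 distinct KO regions, of which 359 (74.6%) had a peak of WT replicate 1 alone, 27 (5.61%) of WT replicate 2 alone, 18 (3.74%) of both lists, and 77 (16.0%) of neither. Most of these regions were thus acetylated in 3 of 4 libraries and had no peak in the short list of WT replicate 2. With KO in place of WT, 6565 sites met the rule, and the 5823 shared sites made up 91.0% of the WT-based and 88.7% of the KO-based set. The other KO-based sites were 587 remote and 155 flanking ones by WT distance.

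Single lists show the same unevenness. A peak lay within 10000 bp of 772 intermediate sites in WT replicate 1, of 97 in WT replicate 2, of 667 in KO replicate 1 and of 713 in KO replicate 2. The WT counts are held down by the rule, which allows no reproducible WT region at that distance, so no test between genotypes was made of them. For the 6565 sites chosen by KO distance, where the rule holds down the KO counts in turn, they were 549, 213, 231 and 276. WT replicate 2 had the fewest in both sets. No peak of any library lay within 10000 bp of 5264 intermediate sites (82.2%).

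As called, the length of acetylated chromatin around the intermediate sites did not differ between genotypes beyond the spread of the libraries. Peaks within 100000 bp of a site covered on average 11946 bp in WT replicate 1, 9582 bp in WT replicate 2, 11229 bp in KO replicate 1 and 10177 bp in KO replicate 2. Both KO values lay between the WT values. The means were 10764 ± 1671 bp in WT and 10703 ± 744 bp in KO (SD, n = 2 each), a KO minus WT difference of -60.3 bp (exact permutation test, two-sided, p = 1, the smallest possible being 0.333). The sign rested on single libraries, as the difference was 1132 bp without WT replicate 1, 470.2 bp without KO replicate 2, -936.3 bp without WT replicate 2 and -588.3 bp without KO replicate 1. After each library was scaled to its own sum of peak lengths, the values drew together to 10725 and 10618 bp for WT, against 10776 and 10807 bp for KO. Both KO values were then above both WT values, by 120.2 bp in the mean (exact permutation test, two-sided, p = 0.333, the smallest possible). The WT lists had set the rule, so the same was done for sites chosen by KO distance, with a scaled difference of 80.9 bp (p = 0.667, exact permutation), and for sites that met both rules, with 12.4 bp (p = 0.667, exact permutation).

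**Figure D5:**
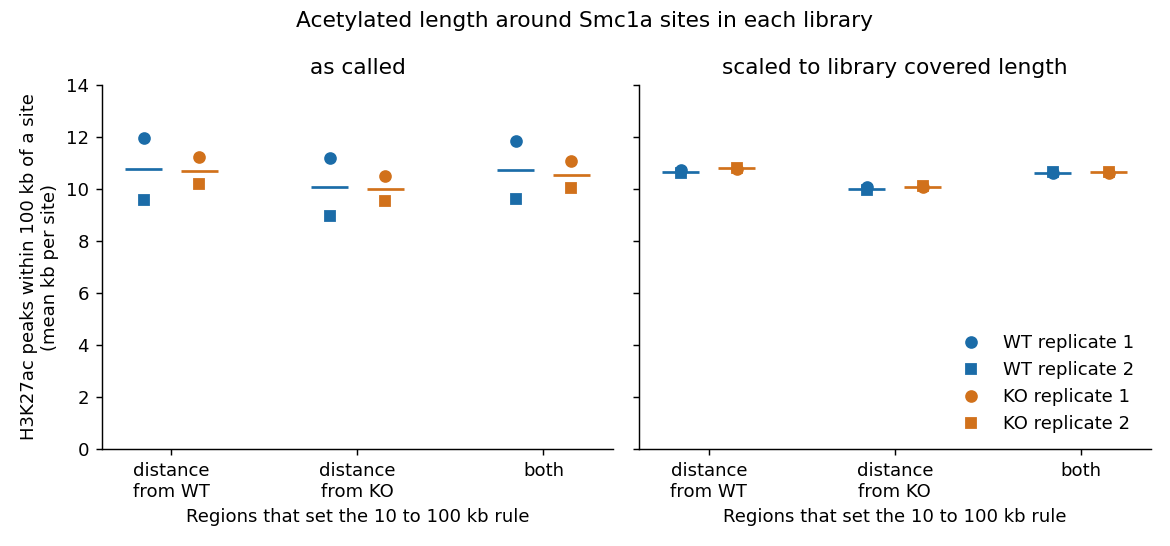
Mean length covered by H3K27ac peaks within 100 kb of a Smc1a site (vertical axis, kb per site) in each library (symbols) with the mean of each genotype (lines), for sites chosen by distance from WT regions, from KO regions or from both (horizontal axis), as called (left) and scaled to the covered length of each library (right). As called, the KO libraries lie between the WT libraries in each set, and after scaling all 4 lie close together.

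Site by site, the genotypes were compared by the order of the 4 libraries. Acetylated length within 100000 bp was greater in each KO library than in either WT library around 1395 intermediate sites (21.8%), against a background of 16.7% over all reproducible Smc1a sites. It was lower in both KO libraries around 924 (14.4%), against a background of 21.3%. The order was the reverse of that over all sites. That background includes 3260 sites in reproducible WT regions, which hold peaks of both WT libraries by definition. Their part in the reversal was not tested. After scaling to covered length the shares were 27.0% higher and 17.0% lower, against backgrounds of 21.1% and 22.7%. Sites chosen by KO distance gave 23.4% and 14.3%, and sites that met both rules 21.0% and 14.8%, so the order was the same where KO lists set the rule. The set chosen by KO distance includes 587 sites that were remote by WT distance. Flanking sites showed 15.5% higher and 20.2% lower. Their rule requires a reproducible WT region within 10000 bp, and that of the intermediate sites excludes one, so part of this contrast was built in. No flanking set by KO distance was compared. Remote sites showed 17.6% higher and 0.0987% lower (scaled, 21.5% and 0.197%), but their rule leaves no reproducible WT region within 100000 bp and so hardly any room for a lower KO value. The order of the remote or flanking sites can therefore not be set beside that of the intermediate ones. Neighbouring sites share acetylated regions and are not independent, so no test was made of these counts.

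Acetylated regions called in a single genotype lay near some of the sites. Regions with a peak of both KO and of neither WT library (690 in all) lay within 10000 bp of 82 intermediate sites (1.28%) and within 100000 bp of 789 (12.3%), against backgrounds of 1.65% and 11.5% over all reproducible Smc1a sites. Regions with a peak of both WT and of neither KO library (569 in all) lay within 100000 bp of 568 sites (8.88%), against a background of 14.4%. The rule excludes the latter from the first 10000 bp, so the shares are not alike in what they could reach. The closest KO-only region began 69 bp from the site chr5:114406313-114407100 (Smc1a scores 267.7 and 117.0), spanned 114404693 to 114406243, and had H3K27ac scores of 91.64 and 101.9 in the KO lists. The strongest of the 5 closest lay 466 bp from chr9:66130882-66132214 (Smc1a scores 204.3 and 73.32). It ran from 66127389 to 66130415 (3027 bp) with H3K27ac scores of 499.8 and 1119. The KO-only regions beside chr8:117326924-117327722, chr11:120168242-120169905 and chr3:96616226-96617055 lay 308, 357 and 457 bp away. Their scores of 53.68 to 129.0 were below the median scores of the KO lists, 280.2 in replicate 1 and 279.4 in replicate 2.

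The closest WT-only regions stood just past the lower limit. The nearest, 10112 bp from chr11:50082460-50083129, was itself a weak call, with scores of 76.72 and 54.85 in the WT lists, and so was the Smc1a site (63.10 and 91.01). Acetylated length within 100000 bp was 12248 and 6968 bp there for WT, against 12171 and 9832 bp for KO, so the groups overlapped and WT replicate 2 was the lowest. The site chr5:100499032-100499683 was stronger, with scores of 511.0 and 253.4, and its WT-only region of 1510 bp, 10598 bp away, scored 225.7 and 140.5. WT covered 11278 and 9569 bp around it, and KO 7380 and 8235 bp. Beside chr4:114309677-114310187 (Smc1a scores 398.2 and 285.4) the WT-only region lay 10782 bp away. The covered length was 14862 and 11255 bp there for WT, against 9977 and 9749 bp for KO. These regions were named for their WT peaks, so some of that difference was built in. The 2 others, beside chr10:42632949-42633592 and chr13:52349253-52350121, lay 10727 and 10947 bp away, and in both neighbourhoods too each WT library covered more than either KO library. WT was thus the higher group around 4 of these 5 sites, which were picked for a WT-only region inside the length compared. Both KO libraries were the lower ones around 14.4% of all intermediate sites and 21.3% of all reproducible Smc1a sites.

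The limits of the rule cut through a continuous range. Just inside the lower limit were chr7:134208861-134209630 at 10010 bp (scores 157.0 and 52.33) and chr4:32926647-32927321 at 10020 bp (184.7 and 84.38). Just outside it were chr6:146611030-146611815 at 9996 bp (889.9 and 88.12) and chr16:24874179-24874912 at 9991 bp (246.0 and 217.6). At the upper limit, chr1:136750706-136751457 at 99872 bp (233.7 and 206.4) and chr8:96723155-96723964 at 99852 bp (359.8 and 242.4) were the last inside. The first beyond it were chr1:91087853-91088611 at 100023 bp (139.8 and 157.9) and chr14:105796357-105797220 at 100075 bp (893.6 and 898.1).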

How the data were processed

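H3K27ac and Smc1a peak lists of 6 libraries were used, and the 5 input libraries were not analysed here. Per the submitters' processing notes, the aligner was Bowtie 0.12.8 and the build mm9. Each library has its own list, whose peak names are those of MACS, per the file contents. The score of each peak is a value deposited by the authors, never below 50 and not scaled between lists. Neither labels nor files state the caller's version and settings or any filter on reads. The files hold no reads, so depth is unknown, and a missing peak is a missing call.

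Overlapping or touching peaks were merged, with an overlap of at least 1 bp counting as shared. Distances run from edge to edge, and coordinates count from 1. A site takes its best peak's score. Scripts ran under Python 3.11.15 with scipy 1.17.1, pandas 2.3.3 and numpy 2.4.6. Interval functions were tested on simulated data and against bedtools 2.31.1. Genotypes were compared over 4 libraries with two-sided exact permutation tests. As the labels do not say whether libraries came from separate mice, their p-values measure only the spread between these samples, which may be technical. The class of sites, its comparisons and the rule for named regions were chosen with earlier results of these data known. That rule took the 10 best scored and 5 longest sites, the 5 gaps with most sites (ties by chromosome name, then start), the 2 sites on either side of each limit, and the 5 sites closest to KO-only and to WT-only regions. Reference tables were of another build, so no genes or sequences are given.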

Additional observations from a re-analysis of the deposited data

How the results depend on the processing

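Over 7 results and 86 alternatives, 64 values stayed within the spread between replicates, the 95% interval or 1.5-fold of the reported value, or kept their sign where tested. Another 16 values moved beyond these bounds. In 6 of its 17 alternatives the KO minus WT difference in acetylated length changed sign. Leaving out 1 library at a time gave 6346 to 10672 intermediate sites, 5678 to 9673 of which met the rule by KO distance too. The mean of the 2 median score percentiles was 64.7, and 52.7 to 64.6 in this step. Median spacing ran from 14122 to 27846 bp, median gap length from 145232 to 183938 bp, nearest WT regions without a KO peak from 2.66% to 11.9%, and the KO minus WT difference in acetylated length from -936.3 to 1132 bp. With the limits at 20000 and 50000 bp there were 2792 sites (2257 by both distances), gaps of 155664 bp and a difference of 0.306 bp. The difference was 104.9 bp within 50000 bp and 120.2 bp after scaling, and the cause of its changes of sign was not tested. Over its 17 alternatives the permutation p ran from 0.333 to 1. Spacing was 31201 bp with the upper 75% of each list, and 3.71% of nearest regions lacked a KO peak with equal numbers of peaks, against 4.99% of all WT regions (exchanged, 4.65% against 4.18%). Ranking among reproducible sites alone, an alternative chosen after seeing the data, gave a percentile of 52.9.

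With the replicate number as a block the difference was again -60.3 bp (sign-flip permutation over 2 pairs, p = 1, smallest possible 0.5). Same-numbered libraries deviated together only weakly around the sites (r = 0.200), and the labels do not say that a number marks a shared mouse or day, so the samples were taken to share only a number. Depth is unknown, so weak acetylation near a site cannot be told from none.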
